A study of Mus musculus with 6 samples.

Results

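The genes of DNA replication and S phase were taken by name from the arrays of the Zeb2 study. The name rule covers the origin recognition complex (Orc), the Mcm helicase genes, GINS and Cdc45, primase and the DNA polymerases alpha, delta and epsilon, the sliding clamp and its loader, replication protein A, the enzymes that join Okazaki fragments and supply deoxynucleotides, cyclin E and the E2F transcription factors. It found 55 probe sets of 52 genes among 10366 genes that have a probe set with a single symbol. Where a gene had several probe sets, the one with the highest mean over the 6 arrays was used. The rule reads names alone, with no measured value behind it beyond that mean. It also takes in Mcm3ap, which is named for the binding of its protein to Mcm3 and is known for a part in mRNA export.

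Expression was measured on whole-transcript arrays, 1 per bone marrow sample, in cells of the LKS-Slam gate, which is highly enriched for hematopoietic stem cells. The 3 arrays labelled Zeb2-KO came from Zeb2 fl/fl Mx1-Cre mice, given as Zeb2 delta/delta after deletion, in which an interferon-inducible promoter (Mx1) drives the Cre recombinase in blood cells and in other cells that answer to interferon. The 3 WT arrays came from C57Bl/6 mice, for which the labels list neither Mx1-Cre nor floxed Zeb2. Mice of both groups received pIC, a synthetic RNA that induces interferon, at 6 weeks of age and were studied 8 weeks later, at 14 weeks. Of 6 measured surface genes used in and around such gates 3 lay higher in the arrays labelled Zeb2-KO (Slamf1, Kit and Flt3). The other 3 lay lower (Cd48 with a difference of -1.02, Cd34 with -0.69 and Procr with -0.45), and none passed the test. Cd48 is a marker that the Slam gate selects against, so these genes are not all markers of cells inside the gate. Slamf1 (CD150) was lowest in WT replicate 1, with a log2 intensity of 8.31, 9.01 and 8.30 in the Zeb2-KO-labelled arrays, against 5.76, 8.02 and 7.94 in WT. Zeb2 went against its label, with 7.79, 9.13 and 8.96 in the Zeb2-KO-labelled arrays, against 6.58, 7.51 and 7.34 in WT, so each direction given here is that of the labels. The deleted part of Zeb2 is not given in the labels, so whether its probe set lies inside it was not tested.

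Cells copy their DNA once per cycle. In G1 phase the origin recognition complex, Cdc6 and Cdt1 load the ring-shaped Mcm2-7 helicase onto origins, and at the start of S phase Cdc45 and GINS join it to form the active helicase. Primase and polymerase alpha then lay down primers, polymerases delta and epsilon extend them on the Pcna clamp, and E2F factors, held in check by the retinoblastoma family, switch on most of these genes as a group. Adult hematopoietic stem cells are mostly quiescent and enter the cycle seldom. Transcripts of many of these genes are higher in cycling cells, but the share of such cells was not measured here. In bulk samples such as these, fewer cycling cells and less RNA per cell cannot be told apart.

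The E2F factors bind DNA words that can be read directly in the promoters of these genes. RefSeq promoter windows (assembly GRCm38.p6, 250 bases before to 50 after a gene's start) were found for 42 of the 52 genes, as 51 windows. Ccne2, E2f4, E2f5, Gins1, Gins2, Gins4, Mcm4, Pole, Prim2 and Rfc2 had none. The E2F words searched were TTCCCGC, the related word TTGGCGC, the further word TTCGCGC and the last word TTGCCGC, on both strands, and neighbouring matches may overlap, since a word and the reverse of another can share bases. Such a word stood in 29 of the 51 windows (56.9%), against 9.57% of 32851 mouse promoter windows and 14.6% of the 9972 windows of genes with a single-symbol probe set. Counted by gene, 27 of 42 had at least 1 match. Of the 48 matches, 30 began within 60 bases of the start site. The windows shown are those of Mcm6, Mcm3, Mcm5 and Pola1, which hold the most matches among genes with a log2 difference of at least 0.5 between the groups, of Rfc3, whose matches lie beside the start site, and of Orc2, whose difference was close to that of Mcm6 and whose windows hold none. Capitals mark the E2F words, and each window is written 5′ to 3′ on the strand of its gene. Mcm6 lies at chr1:128359656-128359955 (minus strand), Mcm3 at chr1:20820263-20820562 (minus), Mcm5 at chr8:75109259-75109558 (plus), Pola1 at chrX:93632106-93632405 (minus), Rfc3 at chr5:151651159-151651458 (minus) and Orc2 at chr1:58505060-58505359 (minus).
Mcm6: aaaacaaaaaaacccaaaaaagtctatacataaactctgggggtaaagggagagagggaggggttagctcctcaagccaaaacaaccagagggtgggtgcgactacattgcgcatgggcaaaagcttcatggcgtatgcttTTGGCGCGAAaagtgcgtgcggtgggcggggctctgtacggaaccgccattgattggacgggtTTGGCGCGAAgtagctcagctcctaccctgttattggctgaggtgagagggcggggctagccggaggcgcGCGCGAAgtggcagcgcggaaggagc
Mcm3: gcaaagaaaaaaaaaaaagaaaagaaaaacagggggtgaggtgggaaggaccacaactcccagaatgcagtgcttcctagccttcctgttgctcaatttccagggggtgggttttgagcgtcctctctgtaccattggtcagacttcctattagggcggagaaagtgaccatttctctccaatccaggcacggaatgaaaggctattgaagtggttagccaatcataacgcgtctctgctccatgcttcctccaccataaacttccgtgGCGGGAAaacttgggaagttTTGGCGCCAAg
Mcm5: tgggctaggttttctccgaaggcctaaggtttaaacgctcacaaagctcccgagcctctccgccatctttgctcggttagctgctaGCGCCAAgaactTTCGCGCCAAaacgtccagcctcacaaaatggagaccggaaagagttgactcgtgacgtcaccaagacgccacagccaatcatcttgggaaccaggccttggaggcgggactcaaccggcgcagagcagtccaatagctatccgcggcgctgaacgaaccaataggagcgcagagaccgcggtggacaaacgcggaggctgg
Pola1: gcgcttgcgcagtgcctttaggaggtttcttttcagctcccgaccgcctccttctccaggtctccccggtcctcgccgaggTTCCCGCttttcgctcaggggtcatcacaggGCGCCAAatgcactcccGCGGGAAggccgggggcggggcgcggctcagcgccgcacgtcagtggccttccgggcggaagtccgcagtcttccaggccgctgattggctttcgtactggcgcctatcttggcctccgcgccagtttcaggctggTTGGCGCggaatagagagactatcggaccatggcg
Rfc3: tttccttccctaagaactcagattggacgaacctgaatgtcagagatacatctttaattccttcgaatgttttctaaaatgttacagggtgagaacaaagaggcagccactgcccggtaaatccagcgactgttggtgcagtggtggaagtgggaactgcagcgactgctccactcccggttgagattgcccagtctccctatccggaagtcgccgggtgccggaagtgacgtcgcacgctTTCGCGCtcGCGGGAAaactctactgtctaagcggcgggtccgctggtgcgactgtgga
Orc2: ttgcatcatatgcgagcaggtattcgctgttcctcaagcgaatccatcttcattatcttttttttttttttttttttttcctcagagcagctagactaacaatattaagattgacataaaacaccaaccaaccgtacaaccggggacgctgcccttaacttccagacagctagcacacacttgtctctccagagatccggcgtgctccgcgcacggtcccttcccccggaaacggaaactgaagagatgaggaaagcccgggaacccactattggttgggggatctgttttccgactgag

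In the Mcm6 window 5 matches were found, in a pair of overlapping ones that occurs at 2 places and a single one after the start site. Pola1 held 4 matches and Mcm3 and Mcm5 held 3 each. The CCAAT word of the factor NF-Y also stood in 29 of 51 windows (56.9%), against 37.4% of all windows. The word of MYC, CACGTG, was found in 8 windows (15.7%, against 7.15% of all windows and 8.97% of those of genes with a single-symbol probe set), and the cell cycle homology region (CHR, TTTGAA or TTCGAA), known from genes of mitosis, in 8 (15.7%, against 19.2% and 15.6%). CACCTG, the E-box that ZEB proteins bind, stood in 5 windows (9.80%, against 20.2% and 18.4%), those of Orc6, Pold3, Prim1, Rfc1 and Tyms. The median GC content was 62.3% in the windows of the replication genes, 58.7% in those of genes with a single-symbol probe set and 52.7% in all windows. A match is a description of letters, and windows of a gene with several starts are not independent. The 27 genes with an E2F word had a median difference of 0.37 (log2) and the 15 genes with a window and no such word 0.35, with 26 of 27 and 13 of 15 above 0.

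**Figure D1:**
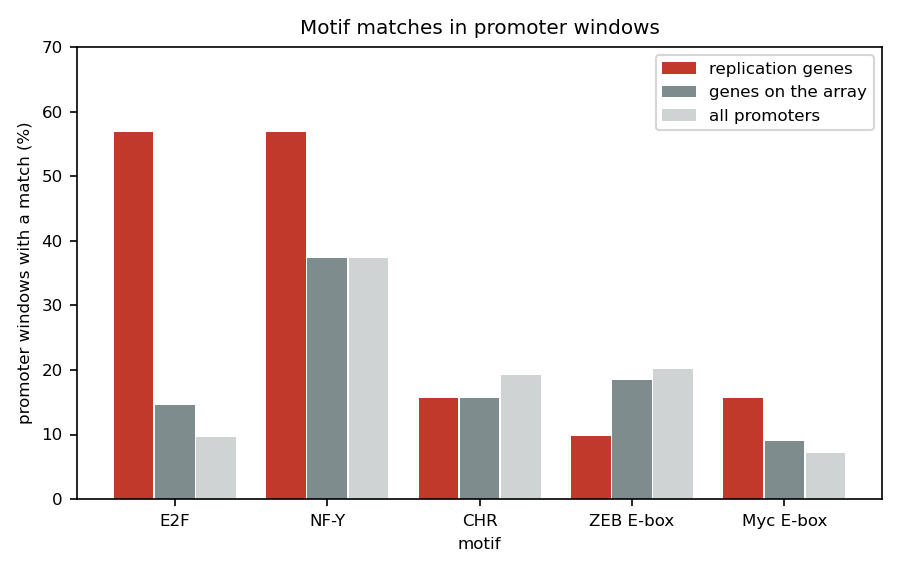
Share of promoter windows (percent, vertical axis) that hold at least 1 match to each motif, for 51 windows of the replication genes, 9972 windows of genes with a single-symbol probe set and all 32851 windows. E2F words stood in 56.9% of the replication gene windows and 9.57% of all windows, and the ZEB E-box in 9.80% of the replication gene windows and 20.2% of all windows.

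Replication genes tended to lie higher in the arrays labelled Zeb2-KO than in WT, but no gene passed the test and the lead did not hold with array spread in the fit. Of the 52 genes, 48 (92.3%) had a difference above 0, but only 26 of 52 did once array spread (the interquartile range of an array's log2 values) was a term in the fit. Without that term 45.7% of all 10366 genes had a difference above 0. Over the 5250 genes at or above the median signal 66.0% did, where 39 of 42 replication genes did. The median difference (Zeb2-KO minus WT, log2) was 0.37 over the replication genes, with quartiles at 0.19 and 0.56, and -0.074 over all genes, with quartiles at -0.31 and 0.35. With array spread in the fit these medians were 0.013 and -0.0098. With quantile normalization, which gives every array the same distribution of values, 43 of 52 replication genes lay above 0 (82.7%, against 43.2% of all genes). The medians were then 0.26 over the replication genes and -0.069 over all genes.

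No replication gene passed an adjusted p of 0.05 in limma's moderated test, in which p-values were adjusted over all 14610 probe sets. Their adjusted p ran from 0.668 to 0.938, and 2 probe sets in the whole table passed, both higher (0.0137%). At an unadjusted p under 0.05 stood 5 of the 52 genes (9.62%), Mcm6, Pold3, Rrm2, Orc4 and Orc2, all higher, against 6.06% of all genes on the higher side. On the lower side there was none, against 1.01% of all genes. In 5 genes (9.62%), Mcm2, Mcm3ap, Orc4, Pole and Rrm2, every array labelled Zeb2-KO lay above every WT array, against 7.39% of all genes, and in none did they all lie below, against 6.11%. Both counts of 5 stand near their background, and the count at the unadjusted threshold was 1 without Zeb2-KO replicate 2 and also 1 without WT replicate 1, where 3.52% and 4.78% of all genes stood there, against 7.07% with all arrays. Leaving out 1 array moved the difference by over 1.5 times, or to the other side of 0, in 47 of the 52 genes. The exceptions were Mcm2, Mcm3, Orc4, Pole and Rrm2. With array weights Orc2, Rfc3 and Rrm2 passed the adjusted threshold. The share of all genes past it in that fit is not given here, so these genes cannot be set against a background. At an unadjusted p under 0.05 that fit had 23 of the 52 genes, against 33.0% of all genes. The SE of a difference ran from 0.27 to 0.86 with a median of 0.345, close to the median difference itself.

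**Figure D2:**
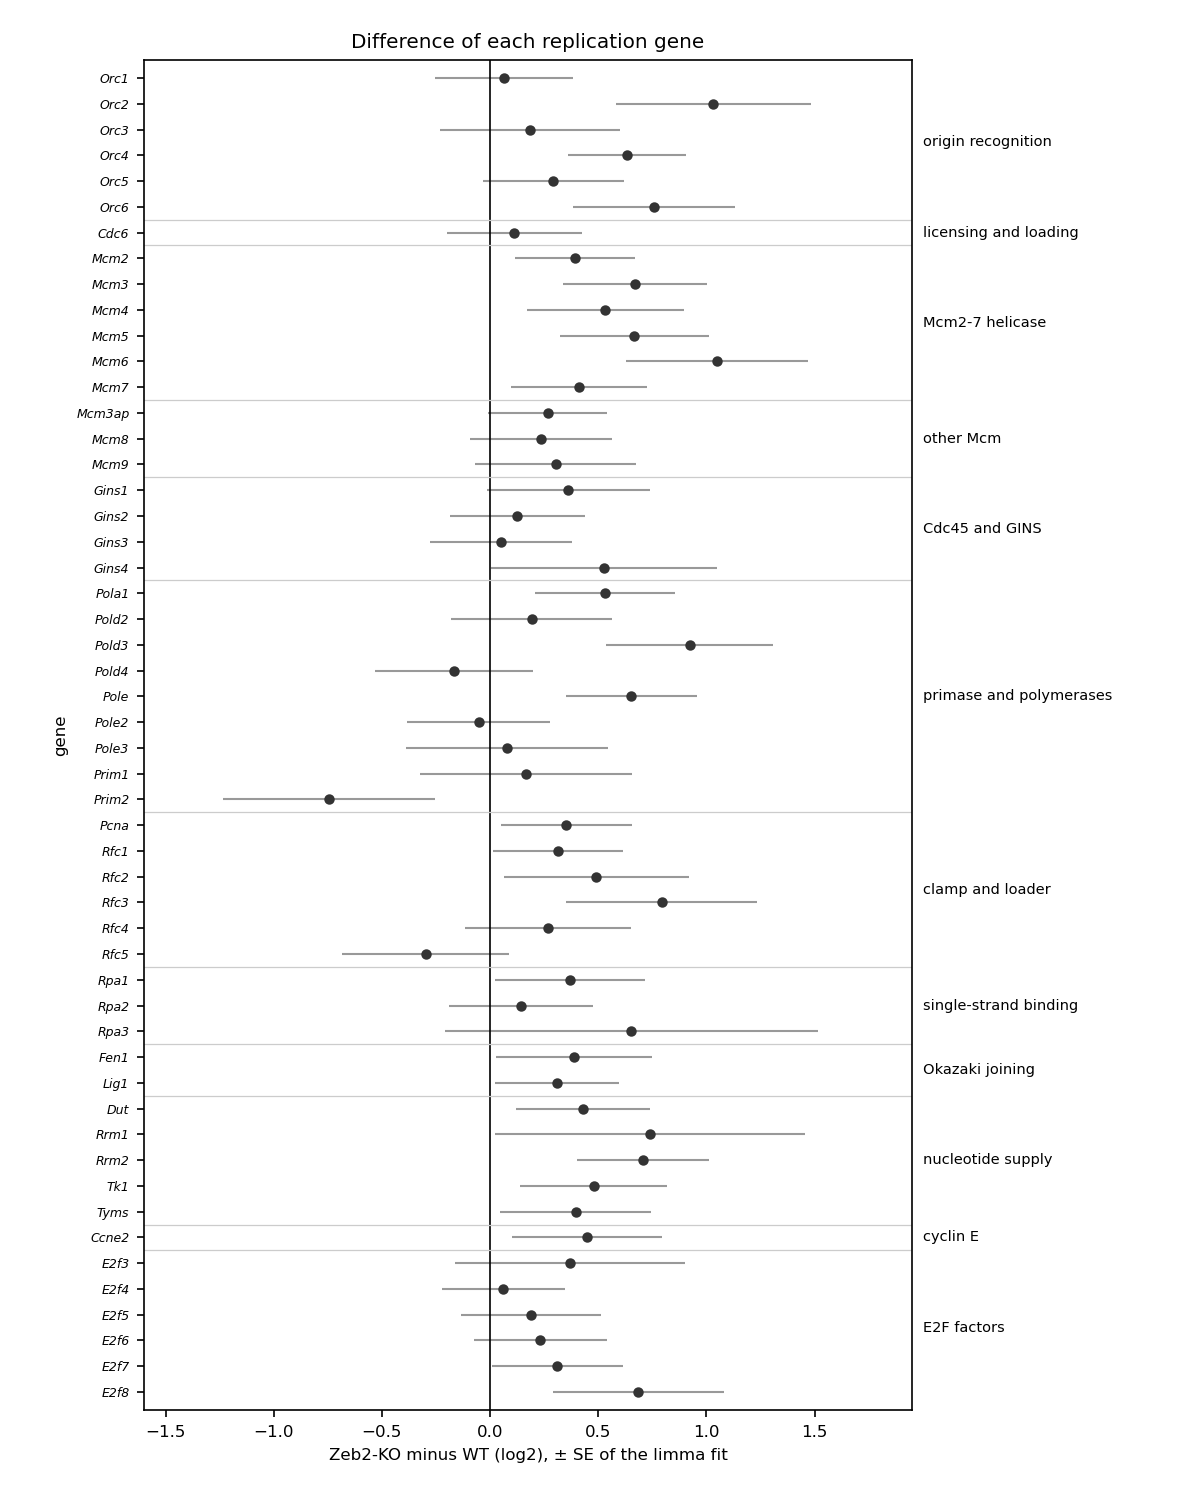
Difference between the arrays labelled Zeb2-KO and WT (log2, horizontal axis) for each of the 52 genes, grouped by role. Points are limma estimates with their SE (3 arrays per group); 48 of 52 points lie right of 0, but 26 of 52 do with array spread in the fit, and Prim2 lies farthest left at -0.75.

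The Mcm2-7 genes, which encode the 6 subunits of the replicative helicase ring, all had a difference above 0, also with array spread in the fit (medians 0.60 and 0.17). Mcm6 stood at a log2 intensity of 9.0, 9.95 and 9.23 in the Zeb2-KO-labelled arrays, against 7.48, 9.05 and 8.50 in WT, where replicate 2 reached into the range of the other group. Its difference of 1.05 (SE 0.42, 2.07-fold) was the largest of the 52 genes and did not pass (limma adjusted p = 0.668). It was 0.62 without WT replicate 1 and 0.29 with array spread in the fit.

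Mcm2 was the helicase gene whose groups did not overlap, with 7.29, 7.69 and 7.50 in the Zeb2-KO-labelled arrays, against 6.95, 7.24 and 7.12 in WT. The gap between the groups was narrow, and the difference was 0.39 (SE 0.28). Mcm3 read 7.61, 8.43 and 7.98 in the Zeb2-KO-labelled arrays, against 7.01, 7.81 and 7.19 in WT, a difference of 0.67 (SE 0.33). Mcm5 read 7.76, 8.43 and 7.41 in the Zeb2-KO-labelled arrays, against 7.05, 7.62 and 6.93 in WT, a difference of 0.67 (SE 0.34) that was 0.38 without Zeb2-KO replicate 2. In both genes WT replicate 2 lay inside the range of the arrays labelled Zeb2-KO. Mcm4 read 8.18, 8.69 and 8.02 in the Zeb2-KO-labelled arrays, against 7.05, 8.26 and 7.98 in WT. Its difference of 0.53 was 0.18 without WT replicate 1 and 0.031 with array spread in the fit. Mcm7 read 6.93, 7.15 and 7.30 in the Zeb2-KO-labelled arrays, against 6.63, 7.20 and 6.31 in WT, a difference of 0.41 that ran from 0.21 without WT replicate 3 to 0.65 without WT replicate 2. The same pattern held in these 2 genes, with WT replicate 2 among the arrays labelled Zeb2-KO.

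Of the other genes with an Mcm name, Mcm8 and Mcm9 encode a related helicase known for its part in recombination repair. Mcm9 read 6.69, 6.93 and 6.46 in the Zeb2-KO-labelled arrays, against 5.56, 6.83 and 6.78 in WT, and only WT replicate 1 was low. Mcm8 read 6.41, 6.94 and 7.10 in the Zeb2-KO-labelled arrays, against 6.19, 6.50 and 7.05 in WT, a difference of 0.24. Mcm3ap read 7.41, 7.49 and 7.51 in the Zeb2-KO-labelled arrays, against 6.97, 7.25 and 7.41 in WT. Its groups did not overlap at full precision, but the lowest array labelled Zeb2-KO and the highest WT array were equal when rounded to 2 decimals, and the difference was 0.27 (SE 0.27).

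All 6 genes of the origin recognition complex, which marks the sites where replication can begin, had a difference above 0 (median 0.46), but 3 of 6 did with array spread in the fit. Orc2 read 7.50, 7.55 and 7.98 in the Zeb2-KO-labelled arrays, against 5.56, 7.57 and 6.80 in WT. WT replicate 1 lay far below every other array and WT replicate 2 within the range of the arrays labelled Zeb2-KO. The difference of 1.03 (SE 0.45, 2.04-fold, adjusted p = 0.673) was 0.49 without WT replicate 1. Orc4 read 8.26, 8.44 and 8.57 in the Zeb2-KO-labelled arrays, against 7.63, 7.83 and 7.92 in WT. Its groups did not overlap, with an SD of 0.15 in each, and its difference of 0.63 (SE 0.27, adjusted p = 0.673) ran from 0.55 to 0.71 with 1 array left out and was 0.52 with array spread in the fit. Probe set identifiers run largely in chromosome order, and that of Orc4 on chromosome 2 (10482467) is close to that of Zeb2 (10482448). The groups differ at Zeb2 by their labels, and an effect of that locus on nearby genes was not tested. Orc6 had a difference of 0.76, Orc5 of 0.29 and Orc3 of 0.18. Orc1, the subunit whose level is known to change through the cycle, read 5.01, 5.96 and 5.36 in the Zeb2-KO-labelled arrays, against 5.57, 5.18 and 5.38 in WT, with the groups interleaved and a difference of 0.064.

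Cdc6, which helps to load the helicase at origins, read 6.04, 6.52 and 6.11 in the Zeb2-KO-labelled arrays, against 6.58, 5.88 and 5.87 in WT. Here WT replicate 1 was the highest of the 6 arrays, and Cdc6 was the 1 gene of the 52 with its maximum there. The 4 GINS genes, whose products join Cdc45 in the active helicase, had a median difference of 0.24, with 4 of 4 above 0 and 1 of 4 with array spread in the fit. Gins4 read 8.02, 9.56 and 9.09 in the Zeb2-KO-labelled arrays, against 7.25, 8.61 and 9.23 in WT, so that WT replicate 3 exceeded 2 arrays of the other group. Gins3 read 6.67, 6.43 and 6.82 in the Zeb2-KO-labelled arrays, against 6.25, 6.32 and 7.20 in WT, a difference of 0.049. Gins1 had a difference of 0.36 and Gins2 of 0.13.

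Primase and the polymerases ranged from -0.75 to 0.92, with 6 of 9 genes above 0 and a median of 0.17, and 3 of 9 above 0 with array spread in the fit. Pold3, an accessory subunit of polymerase delta, read 8.54, 9.11 and 9.03 in the Zeb2-KO-labelled arrays, against 7.13, 8.21 and 8.58 in WT, where replicate 3 lay just above the lowest array of the other group. The difference was 0.92 (SE 0.39, 1.90-fold, adjusted p = 0.673), and 0.50 without WT replicate 1. Pole, the catalytic subunit of polymerase epsilon, read 7.10, 7.23 and 7.16 in the Zeb2-KO-labelled arrays, against 6.14, 6.99 and 6.40 in WT. Its groups did not overlap, and the difference was 0.65 (SE 0.30), or 0.37 with array spread in the fit. Pola1, the catalytic subunit of polymerase alpha, had a difference of 0.53.

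The primase subunits stood apart from each other. Prim2, the large regulatory subunit, read 5.29, 7.20 and 5.54 in the Zeb2-KO-labelled arrays, against 6.14, 7.28 and 6.86 in WT. It had the lowest difference of the 52 genes, -0.75 (SE 0.49, adjusted p = 0.673), with 2 arrays labelled Zeb2-KO below all WT arrays and the third close to the highest WT array. It was -0.39 without Zeb2-KO replicate 1 and -1.34 without Zeb2-KO replicate 2. With array spread in the fit it was -1.73 (SE 0.33, unadjusted p = 0.00224 and adjusted p = 0.972). Prim1, the catalytic subunit, had a difference of 0.17. The other differences in the group were 0.19 for Pold2, 0.078 for Pole3, -0.053 for Pole2 and -0.17 for Pold4. 

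The Pcna clamp, which tethers the polymerases to DNA, had a difference of 0.35 and was measured by 2 probe sets with nearly equal values, which list the same transcripts in the platform annotation. Its loader, the replication factor C complex, ranged from 0.79 for Rfc3 to -0.30 for Rfc5. Rfc3 read 6.66, 8.44 and 8.12 in the Zeb2-KO-labelled arrays, against 6.70, 7.36 and 6.79 in WT, with Zeb2-KO replicate 1 just below all WT arrays and the other two above them. Rfc5 read 7.68, 8.37 and 7.83 in the Zeb2-KO-labelled arrays, against 7.86, 9.09 and 7.82 in WT, where replicate 2 alone was high. Rfc2 had a difference of 0.49, Rfc1 of 0.31 and Rfc4 of 0.27. With array spread in the fit Rfc3 was at -0.018 and Rfc5 at -0.90, and 2 of the 6 clamp and loader genes stayed above 0.

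Replication protein A coats the single strands that the helicase opens. Its smallest subunit gene, Rpa3, varied most among arrays, with 5.74, 8.62 and 7.31 in the Zeb2-KO-labelled arrays, against 5.08, 8.64 and 6.00 in WT. Replicate 2 of both groups was high and replicate 1 of both was low, and the difference of 0.65 had the largest SE of the 52 genes (0.86). The other probe set of Rpa3 gave 0.14. Rpa1 had a difference of 0.37, and Rpa2 read 7.02, 7.41 and 7.05 in the Zeb2-KO-labelled arrays, against 6.82, 7.64 and 6.60 in WT (difference 0.14). Fen1, the nuclease that trims Okazaki fragments, read 6.91, 7.99 and 6.86 in the Zeb2-KO-labelled arrays, against 7.21, 6.72 and 6.67 in WT, with Zeb2-KO replicate 2 alone outside the range of the rest (difference 0.39). Lig1, the ligase that seals the fragments, read 8.44, 8.69 and 8.72 in the Zeb2-KO-labelled arrays, against 8.50, 8.45 and 7.96 in WT, where replicate 3 was the low array (difference 0.31).

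The 5 genes of nucleotide supply all had a difference above 0 in the probe sets used (median 0.48), and 3 of 5 did with array spread in the fit. Rrm2 encodes the small subunit of ribonucleotide reductase, which is made in S phase and sets the supply of deoxynucleotides. It read 7.11, 7.74 and 7.76 in the Zeb2-KO-labelled arrays, against 6.55, 7.03 and 6.91 in WT, without overlap, a difference of 0.71 (SE 0.31, 1.63-fold, adjusted p = 0.673) that was 0.36 with array spread in the fit. Rrm1, the large subunit, read 6.79, 9.45 and 8.89 in the Zeb2-KO-labelled arrays, against 6.46, 9.02 and 7.43 in WT. Its difference was of like size, 0.74, but its SE was 0.72. Replicate 1 was low and replicate 2 high in both groups, and the difference ran from 0.15 (WT replicate 1 left out) to 1.53 (Zeb2-KO replicate 1 left out) and was -0.90 with array spread in the fit.

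Tyms, which makes thymidylate, read 7.70, 7.97 and 7.05 in the Zeb2-KO-labelled arrays, against 6.67, 7.37 and 7.49 in WT, a difference of 0.39. Tk1, the salvage kinase for thymidine, had a difference of 0.48 in the probe set used and -0.023 in its other one. Tk1 lies on chromosome 11. The identifier of the probe set used (10582809) falls beside those of members on chromosome 8, and that of the other (10393431) near those of chromosome 11. Which of the probe sets reads Tk1 better was not tested. Dut, which removes dUTP, had a difference of 0.43. Ccne2, the cyclin E2 that activates Cdk2 at the start of S phase, read 5.21, 6.43 and 5.92 in the Zeb2-KO-labelled arrays, against 5.22, 5.62 and 5.38 in WT. The lowest arrays of the groups were nearly equal, and the difference was 0.45.

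The 6 measured E2F genes had a median difference of 0.27, with 6 of 6 above 0 and 3 of 6 with array spread in the fit. E2f8, an atypical repressor that is itself a target of the activator E2Fs, read 7.61, 9.06 and 8.26 in the Zeb2-KO-labelled arrays, against 7.14, 8.02 and 7.71 in WT, a difference of 0.69 (SE 0.40). Zeb2-KO replicate 1 fell within the WT range. E2f7, the other atypical repressor, had a difference of 0.31 and E2f3, an activator, of 0.37 with an SE of 0.53. E2f3 was at -0.30 without WT replicate 1. The repressors E2f6 and E2f5 had differences of 0.23 and 0.19. E2f4, which is known to act in quiescent cells, read 7.52, 7.30 and 7.64 in the Zeb2-KO-labelled arrays, against 7.53, 7.63 and 7.11 in WT, a difference of 0.061. The other genes of the name rule, among them Mcm10, Cdc45, Cdt1, E2f1, E2f2 and Ccne1, were not analysed here.

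**Figure D3:**
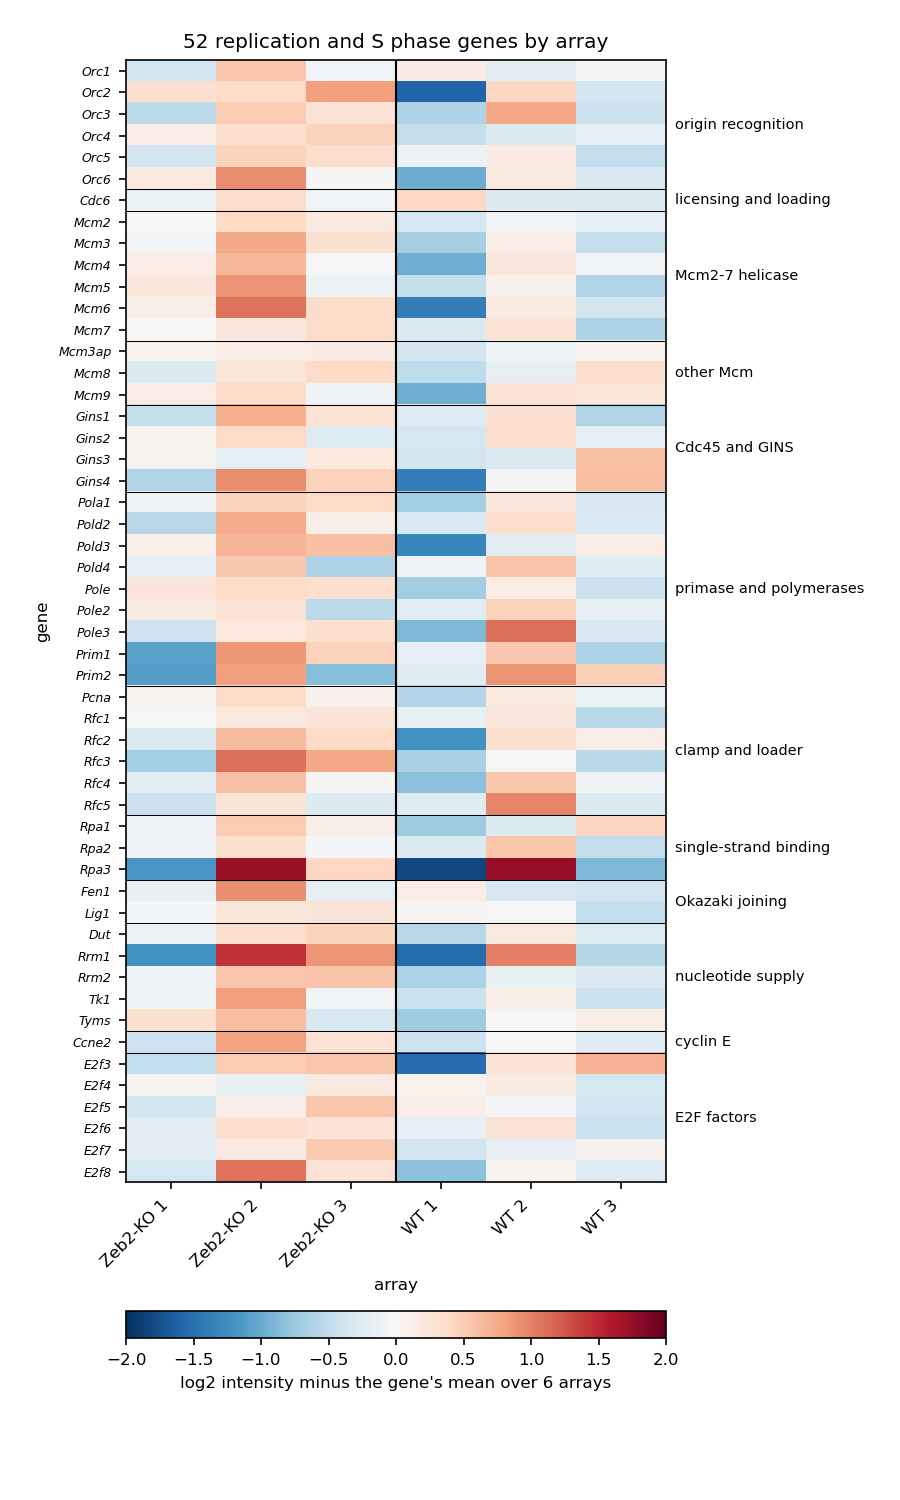
Log2 intensity of each gene minus its own mean over the 6 arrays (colour), with genes in rows grouped by role and arrays in columns, Zeb2-KO left of WT. Zeb2-KO replicate 2 holds the highest value of 29 of the 52 genes and WT replicate 1 the lowest value of 31.

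The level of the replication genes differed between the arrays of each group. Their mean deviation (log2, each gene against its own mean over the 6 arrays) was -0.20, 0.55 and 0.20 in Zeb2-KO-labelled replicates 1 to 3, against -0.57, 0.22 and -0.21 in WT replicates 1 to 3. Both groups thus held arrays below and above 0, and WT replicate 2 lay above 2 of the 3 arrays labelled Zeb2-KO. Zeb2-KO replicate 2 was the highest array for 29 of the 52 genes (55.8%, against 24.9% of all genes), and WT replicate 1 the lowest for 31 (59.6%, against 22.2%). The median difference was 0.19 without Zeb2-KO replicate 2 and also 0.19 without WT replicate 1, with 40 of 52 genes above 0 without Zeb2-KO replicate 2 and 39 of 52 without WT replicate 1.

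The arrays differed in spread in nearly the same order. The interquartile range of log2 values was 1.83, 2.40 and 2.11 in the Zeb2-KO-labelled arrays, against 1.59, 2.03 and 1.77 in WT, so that WT replicate 1 was narrowest and Zeb2-KO replicate 2 widest, as they were lowest and highest for the replication genes. WT replicate 1 also correlated least with the other arrays (mean r over probe sets of 0.841, against 0.886 to 0.908 for the rest). Median intensities differed little, from 94.3 to 99.2. With array spread in the fit 22 genes passed from above to below 0 and none the other way. At an unadjusted p under 0.05 there were then 3 genes, all lower. They were Prim2, Rpa3 (-1.36, on the other side of 0 from the fit without it) and Rfc5. Of all genes 5.13% stood there in either direction and 2.3% on the higher side. The Y-linked gene Eif2s3y was raised in replicate 1 of both groups, at 6.46, 3.26 and 3.10 in the Zeb2-KO-labelled arrays, against 5.20, 3.23 and 3.38 in WT. Without those 2 arrays the median difference of the replication genes was 0.41, with 44 of 52 above 0 (84.6%, against 46.1% of all genes).

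**Figure D4:**
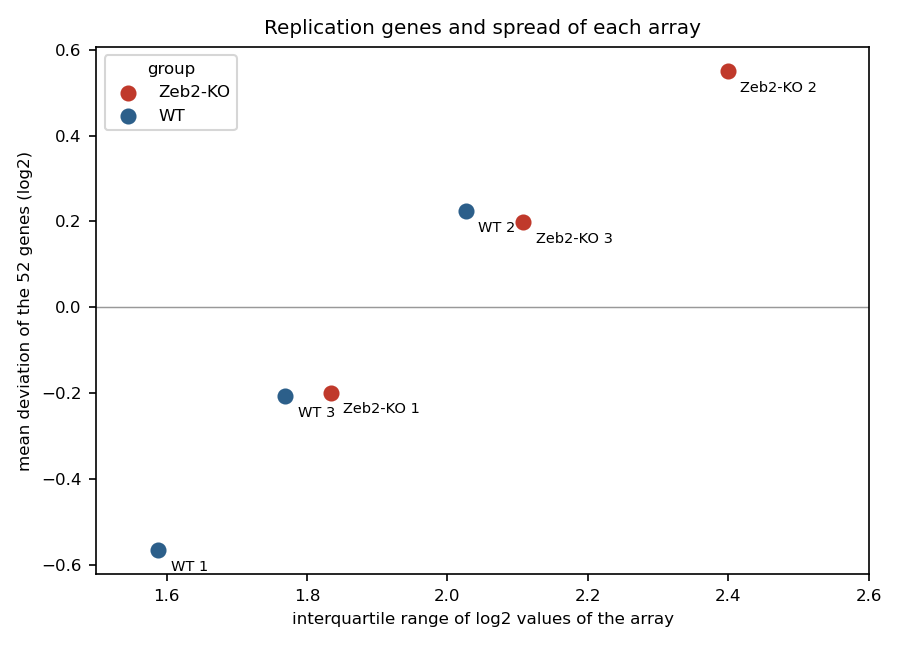
Mean deviation of the 52 replication genes (log2, vertical axis) against the interquartile range of all log2 values of the array (horizontal axis), 1 point per array. WT replicate 1 lies lowest and narrowest (-0.57 at 1.59) and Zeb2-KO replicate 2 highest and widest (0.55 at 2.40), and the groups are mixed in between.

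**Figure D5:**
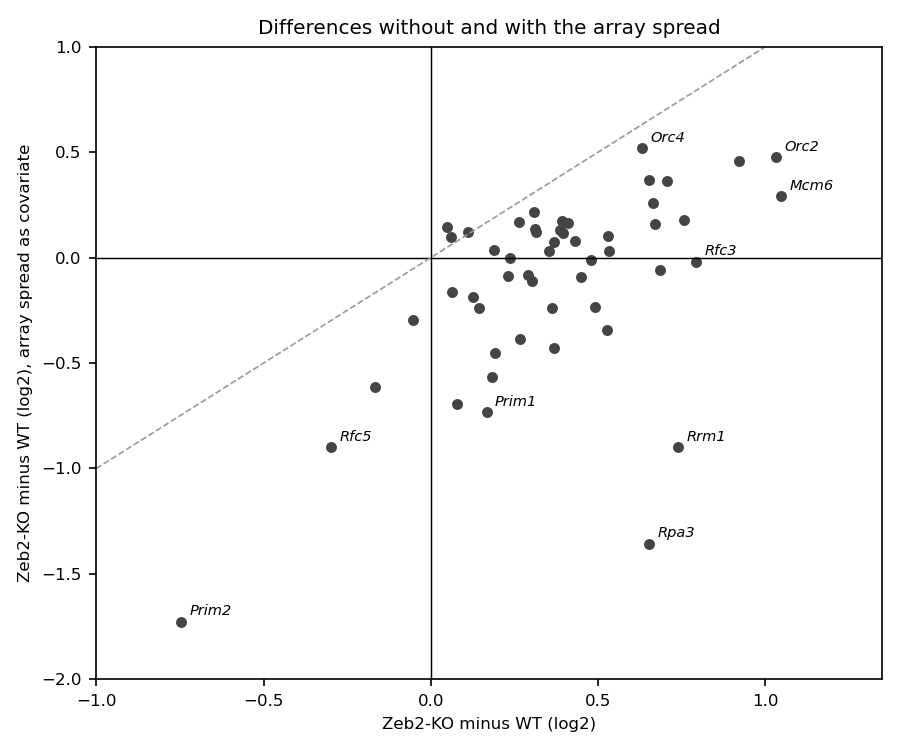
Difference between the arrays labelled Zeb2-KO and WT (log2) for each gene, in the fit without a covariate (horizontal axis) and with array spread in the fit (vertical axis); the dashed line marks equality. Of the 48 genes right of 0, 22 lie below 0 on the vertical axis, while Mcm6, Orc2 and Orc4 lie above it in both.

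Genes beside the name rule were read from lists of the same pathway. Of 19 measured factors of origin firing and the fork, 17 had a difference above 0 (median 0.57), 12 of 19 with array spread in the fit (median 0.14) and 15 of 19 without WT replicate 1 (median 0.26), and none passed. Dbf4, the activator of the Cdc7 kinase that fires origins, read 6.93, 7.83 and 7.82 in the Zeb2-KO-labelled arrays, against 5.46, 6.88 and 6.78 in WT, without overlap (difference 1.15, adjusted p = 0.657). Clspn, an adaptor of the replication checkpoint, had a difference of 0.67 and Topbp1, which brings Cdc45 and GINS to origins, of 0.64. Of 8 genes of chromatin assembly and maintenance at the fork, 6 lay above 0 (median 0.30), 4 of 8 with array spread in the fit (median 0.047) and 6 of 8 without WT replicate 1 (median 0.15), with Supt16, a subunit of the histone chaperone FACT, at 0.94, the helicase Hells at 0.76 and Uhrf1, which guides DNA methylation to new strands, at 0.47. All 11 measured nucleotide enzymes outside the rule lay above 0 (median 0.34), but 4 of 11 did with array spread in the fit (median -0.15) and 7 of 11 without WT replicate 1 (median 0.14). The 3 of smallest p were Ctps (0.53), Mthfd1 (0.53) and Nme2 (0.34).

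Among 11 regulators of G1 and S phase 7 lay above 0 (median 0.46), 5 of 11 with array spread in the fit (median -0.27) and 6 of 11 without WT replicate 1 (median 0.0054). Cdk4, the kinase partner of D cyclins, read 9.11, 9.53 and 9.31 in the Zeb2-KO-labelled arrays, against 7.62, 8.96 and 7.74 in WT, without overlap (difference 1.21, adjusted p = 0.606). Lin9, a subunit of the complex that represses or activates cell cycle promoters, had a difference of 1.40 and Rbl1, the retinoblastoma-like protein p107, of 0.67. The 4 lower genes were Fbxw7 (-0.60), Ccnd1 (-0.47), Cdk6 (-0.35) and Tfdp1 (-0.24). Ccnd1, a D cyclin, read 6.85, 6.91 and 6.87 in the Zeb2-KO-labelled arrays, against 7.42, 7.49 and 7.11 in WT, without overlap. Of 4 measured inhibitors of cyclin-dependent kinases 3 lay above 0, also with array spread in the fit, with Cdkn2c at 0.59, Cdkn1b at 0.45 and Cdkn1c, the inhibitor p57 known from quiescent stem cells, at -0.11. For comparison, all 19 measured genes of mitosis lay above 0 (median 0.55), 12 of 19 with array spread in the fit (median 0.037) and 19 of 19 without WT replicate 1 (median 0.35), with the spindle motors Kif15 (1.41) and Kif11 (0.89) and the checkpoint kinase Bub1 (1.27). None of the genes in these lists passed the test.

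Marker genes of other blood cells differed between the arrays as well. The summed intensity of 7 of 12 erythroid markers lay at 3123 to 3567 in the Zeb2-KO-labelled arrays, against 1033 to 1435 in WT, and that of 7 of 10 megakaryocyte markers at 2802 to 5278 in the Zeb2-KO-labelled arrays, against 785.6 to 1683 in WT. The sum of 11 of 15 B lymphoid markers lay at 1094 to 1800 in the Zeb2-KO-labelled arrays, against 1917 to 3596 in WT, and that of 7 of 8 monocyte and dendritic markers at 1674 to 2309 in the Zeb2-KO-labelled arrays, against 2281 to 3554 in WT. Granulocyte markers (5 of 7) lay at 412.8 to 1406 in the Zeb2-KO-labelled arrays, against 320.0 to 374.3 in WT. The surface genes used in and around the gate (6 of 8) lay at 1776 to 2233 in the Zeb2-KO-labelled arrays, against 1171 to 1975 in WT. Since Cd48 is among them, this gate sum is not a measure of gate identity. Single bright members carried much of some sums. Without Car2 the erythroid sum lay at 651.8 to 1177 in the Zeb2-KO-labelled arrays, against 454.4 to 637.7 in WT. Without S100a9, which was high in Zeb2-KO replicate 1 alone, the granulocyte sum lay at 263.4 to 436.9 in the Zeb2-KO-labelled arrays, against 234.6 to 262.0 in WT. The nearest arrays of the groups were thus almost equal. Of the 5 granulocyte markers 3 lay higher, with Mpo at 0.88, and 2 lower (Elane at -0.16 and S100a8 at -0.15). Without Kit the gate sum lay at 649.4 to 1081 in the Zeb2-KO-labelled arrays, against 660.0 to 909.2 in WT. No marker was at 0, which array values do not give. WT replicate 1, the lowest array for the replication genes, had the highest B lymphoid sum (3596) and the lowest gate sum (1171), and the part of other cell types in the differences above was not tested.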

How the data were processed

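Amplified, biotin-labelled total RNA of LKS-Slam cells was run on 1 array for each bone marrow sample, following the labels' protocols. The authors deposited 1 intensity value for every probe set and array, made with RMA (background correction, normalization and summary over probes), per the submitters' processing notes. Its version is not given in the sources used here. The values are linear, as their range shows, and log2 was taken of them here. The arrays still differ in spread (interquartile range of log2 values from 1.59 to 2.40 over the tested probe sets). Quantile normalization, the usual step within RMA, would make these ranges nearly alike, and the reason for the difference was not tested. Arrays carry no read depth, and 3 per group limit the precision. The labels call the samples biological replicates and name no pairing, so p-values measure the spread between these samples.

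Of 20220 probe sets, 5610 with identifiers below the first annotated one were left out as controls and 14610 were tested. Genes were named from the platform annotation where a probe set has a single symbol (11229 probe sets). Groups came from the titles. The difference, Zeb2-KO minus WT, was estimated with limma (version 3.58.1, R 4.3.3, lmFit and eBayes, 4 residual and 6.87 prior degrees of freedom). P-values were adjusted by Benjamini-Hochberg over the 14610 probe sets. The replication genes, lists and motifs were chosen with earlier results of these data known, and no list was tested as a set. Values of every array are given for Mcm2-7, for genes whose groups do not overlap and for the highest and lowest difference in each role; from each further list up to 3 genes of smallest p are named. Motifs, printed windows and other named genes were chosen after values were seen. Alternatives covered dim and control probe sets, normalization, scale, variance prior, array weights, the replicate block, array spread, the choice of probe set and each array left out.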

Additional observations from a re-analysis of the deposited data

How the results depend on the processing

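With 6 arrays and no read depth, there was no detection call per probe set, and 10 of the 52 genes lay below the median signal of the tested probe sets. The share of genes above 0 stayed within 1.5 times the main count of 48 of 52 in every alternative but 1: with the array spread as a covariate it was 26 of 52. The median difference stayed above 0 throughout, from 0.013 with that covariate to 0.55 without WT replicate 2, and was 0.19 without WT replicate 1 and 0.26 with quantile normalization. Titles number replicates 1 to 3 in both groups, but nothing says that they pair animals, so the replicate number was not taken as a pairing. The deviations of same-numbered arrays correlated at 0.36, 0.41 and 0.047, above those of differently numbered arrays, which ran from -0.375 to 0.0301. What arrays of the same number share was not tested. With the replicate block 12 genes stood at an unadjusted p under 0.05, against 5 without it and 17.7% of all genes with it. In this balanced design the block leaves each difference as it is. That count was 23 with array weights (33.0% of all genes), 3 with the array spread as a covariate (5.13%), 2 with dim probe sets left out (8.21%), with quantile normalization (6.38%), with the trended prior (6.50%) and with the arrays of raised Y-linked signal left out together (8.20%, an alternative added after seeing the data), and 1 with control probe sets kept (4.51%). With 1 array left out it ran from 1 (Zeb2-KO replicate 2, with 3.52% of all genes, and also WT replicate 1, with 4.78%) to 10 (WT replicate 2, with 11.7%). No gene passed the adjusted threshold in any alternative except array weights, where 3 did (Orc2 at 1.18 with adjusted p = 0.0447, Rfc3 at 1.20 with 0.0374 and Rrm2 at 0.86 with 0.0377). The share of all genes past the adjusted threshold with array weights is not given here.

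With the array spread as a covariate, these log2 differences turned to the other side of 0: Ccne2 -0.090, E2f3 -0.43, E2f6 -0.088, E2f8 -0.059, Gins1 -0.24, Gins2 -0.19, Gins4 -0.35, Mcm8 -0.0037, Mcm9 -0.11, Orc1 -0.16, Orc3 -0.56, Orc5 -0.081, Pold2 -0.45, Pole3 -0.70, Prim1 -0.73, Rfc2 -0.23, Rfc3 -0.018, Rfc4 -0.39, Rpa2 -0.24, Rpa3 -1.36, Rrm1 -0.90 and Tk1 -0.011. With quantile normalization E2f4 (-0.099), Gins2 (-0.10), Orc3 (-0.029), Pole3 (-0.13) and Prim1 (-0.076) did so, with array weights Gins2 (-0.10), Gins3 (-0.095), Mcm9 (-0.10) and Tyms (-0.20), and without the arrays of raised Y-linked signal Gins2 (-0.019), Gins3 (-0.14), Mcm9 (-0.11) and Pole3 (-0.12). Tk1 was at -0.023 in its dimmer probe set. With 1 array left out, differences that crossed 0 ran from -0.035 to 0.34 for Cdc6, -0.30 to 0.81 for E2f3, -0.094 to 0.16 for E2f4, -0.037 to 0.43 for E2f5, -0.038 to 0.32 for Gins2, -0.12 to 0.35 for Gins3, -0.031 to 0.96 for Gins4, -0.11 to 0.52 for Mcm9, -0.19 to 0.28 for Orc1, -0.075 to 0.61 for Orc3, -0.13 to 0.52 for Pold2, -0.48 to 0.10 for Pold4, -0.21 to 0.20 for Pole2, -0.35 to 0.64 for Pole3, -0.22 to 0.75 for Prim1, -0.085 to 0.60 for Rfc4, -0.51 to 0.12 for Rfc5, -0.066 to 0.45 for Rpa2 and -0.093 to 1.69 for Rpa3. The cause of these turns was not tested.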
